A study of Mus musculus with 30 samples.

Results

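The IL6 family of cytokines was followed here through 10 genes: the ligands Il6, Lif, Osm (oncostatin M), Il11 and Clcf1, the shared receptor subunit Il6st (gp130), and the receptor subunits Il6ra, Osmr, Lifr and Il11ra1. They were chosen by name as members of the family, and both tissue tables held all 10 among 20207 gene names in all. The study profiled polyadenylated RNA of kidney and of pancreas in C57BL/6 mice given doxycycline at 0.2 mg/ml to drink for 7 days, with 5 libraries, from different mice, in each of 6 groups and 30 libraries in all. In the kidney the groups were i4F p53 KO, i4F Ink4a/Arf KO and i4F, the last of which is labelled i4F_WT as a genotype. In the pancreas they were p53 KO, i4F Ink4a/Arf KO and i4F. The i4F mice carry a cassette from which doxycycline induces Oct4 (gene Pou5f1), Sox2, Klf4 and Myc, and since every group received doxycycline, no group shows the tissue without it. The pancreas label p53 KO does not name i4F, and the labels do not say whether a deletion acted in all cells or where in the body the cassette was active.

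Cytokines of the IL6 family signal by joining receptor subunits around gp130. IL6 and IL11 first bind their own receptors (Il6ra, Il11ra1), LIF joins LIFR to gp130, and in the mouse oncostatin M acts mainly through OSMR with gp130. The complexes activate JAK kinases and STAT3, which induces the feedback inhibitor Socs3 and, in liver and injured epithelia, acute phase proteins; IL6 is also one of the cytokines that senescent and damaged cells secrete. Both p53 and the Ink4a/Arf locus take part in senescence and have been described as brakes on reprogramming. How the loss of each affects either process in these tissues was not tested here. The comparison of genotypes asks how the family's transcripts differ between the labelled groups.

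Promoter sequences of 8 of the 10 members were matched in RefSeq (GRCm38.p6), as 11 windows from 250 bases before to 50 bases after a transcription start. Those that held a match to a binding motif of an inflammatory transcription factor are shown for the members whose levels are described below, with matches in capitals and the gene's own strand read 5′ to 3′.
Il6 (chr5:30012864-30013163, plus strand): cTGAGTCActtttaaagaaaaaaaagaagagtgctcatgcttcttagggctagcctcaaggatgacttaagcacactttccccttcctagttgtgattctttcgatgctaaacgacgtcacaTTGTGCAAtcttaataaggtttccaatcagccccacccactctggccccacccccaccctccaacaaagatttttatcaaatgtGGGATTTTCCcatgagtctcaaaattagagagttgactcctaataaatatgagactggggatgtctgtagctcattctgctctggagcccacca
Lif (chr11:4257318-4257617, plus strand): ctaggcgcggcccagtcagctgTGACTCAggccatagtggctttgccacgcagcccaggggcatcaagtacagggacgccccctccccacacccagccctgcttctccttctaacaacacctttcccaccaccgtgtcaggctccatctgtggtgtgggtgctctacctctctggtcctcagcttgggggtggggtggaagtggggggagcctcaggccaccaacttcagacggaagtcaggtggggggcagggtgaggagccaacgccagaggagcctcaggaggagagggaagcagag
Osmr (chr15:6874264-6874563, minus strand): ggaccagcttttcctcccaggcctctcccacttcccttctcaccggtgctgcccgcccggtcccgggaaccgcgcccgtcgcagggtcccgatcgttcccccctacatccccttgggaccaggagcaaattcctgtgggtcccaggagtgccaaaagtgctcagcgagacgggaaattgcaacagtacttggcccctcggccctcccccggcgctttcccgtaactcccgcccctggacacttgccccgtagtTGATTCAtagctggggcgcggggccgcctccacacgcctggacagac
Il11, second start (chr7:4778092-4778391, minus strand): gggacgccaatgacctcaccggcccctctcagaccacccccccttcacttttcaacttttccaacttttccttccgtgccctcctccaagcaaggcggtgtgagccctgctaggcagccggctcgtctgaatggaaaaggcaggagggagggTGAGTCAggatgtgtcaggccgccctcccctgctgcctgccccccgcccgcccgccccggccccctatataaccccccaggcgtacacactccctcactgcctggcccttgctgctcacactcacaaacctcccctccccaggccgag
The motifs searched on both strands were TGANTCA for AP-1, TTCNNNGAA for STAT factors, TTGCNNAA for C/EBP and, for NF-kB, GGGA and TTCC with any 2 bases between them, and no matches overlapped. Each of the 4 windows shown held 1 match to the AP-1 pattern, which allows any middle base. It read TGAGTCA in Il6 and Il11, TGACTCA in Lif and TGATTCA in Osmr. Il6 also held 1 NF-kB match, GGGATTTTCC, and 1 C/EBP match, TTGTGCAA. The other 7 windows, of Il6ra, Il6st, Lifr, Il11ra1 and the first start of Il11, held none of the 4 motifs, and no window of a member held TTCNNNGAA. Among all 32851 promoter windows of the same length, 7.81% held the AP-1 motif, 8.3% the STAT motif, 1.47% the NF-kB motif and 10.8% the C/EBP motif. A match describes the letters of a window and is not a measured binding site.

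Labels and tissues were checked first. Kidney Trp53 (p53) lay at 4.90 to 10.1 FPKM in i4F p53 KO, against 14.8 to 20.3 FPKM in i4F, with no overlap. Pancreas Trp53 was not lower: it lay at 6.65 to 24.8 FPKM in the libraries labelled p53 KO, against 1.64 to 6.99 FPKM in i4F, so pancreas directions below refer to that label. Cdkn2a, the Ink4a/Arf locus, was near 0 in i4F libraries of both tissues (at most 0.318 FPKM), which leaves no room to see its loss, and reached 10.7, 5.33, 2.07, 0.496 and 14.3 FPKM in pancreas labelled p53 KO. Nephron markers (9 genes) summed to 2256 to 3577 FPKM in i4F p53 KO kidneys, 3805 to 5076 FPKM with Ink4a/Arf KO and 3739 to 4790 FPKM in i4F, so that every p53 KO kidney lay below all others. Acinar markers (12 genes) summed to 4725 to 294800 FPKM in pancreas libraries labelled p53 KO, against 348400 to 387600 FPKM with Ink4a/Arf KO and 204100 to 370500 FPKM in i4F. These sums are incomplete, since Cela2a, Ctrb1 and Pnlip, genes that acinar cells use throughout, were listed at 0 in all 5 i4F pancreata; a listed 0 can therefore be a failed estimate. FPKM share out the reads of each library, so a lower share of one set of genes is met by higher values of the rest. The median tested gene differed by 1.58 (log2) between pancreas libraries labelled p53 KO and i4F. Pancreas values are therefore given as deposited and also scaled, that is, divided by a factor per library that sets the typical gene level (median of ratios, 1.29 to 3.9 in p53 KO and 0.459 to 0.995 in the others). Scaled Trp53 lay at 4.21 to 6.72 in p53 KO pancreas and 3.58 to 7.02 in i4F, so that the groups overlapped. Scaled Cdkn2a lay at 0.383 to 3.87 in p53 KO pancreas and 0 to 0.32 in i4F. Pou5f1, one of the induced factors, lay at 24.6 to 98.2 FPKM in pancreas labelled p53 KO, against 0.0456 to 1.91 FPKM with Ink4a/Arf KO and 0 to 1.14 FPKM in i4F, and its part in the pancreas differences was not tested. Scaled, Pou5f1 lay at 11.1 to 29.8 in p53 KO pancreas, 0.0927 to 3.02 with Ink4a/Arf KO and 0 to 1.43 in i4F. Xist, a transcript of female cells, lay at 26.6 and 20.9 FPKM in i4F kidney replicates 4 and 5 and 24.0 in Ink4a/Arf KO kidney replicate 1. In i4F p53 KO kidneys it was at most 0.0303 FPKM. In the pancreas it lay at 5.44, 7.16 and 9.15 FPKM in i4F replicates 3 to 5, 4.51 in Ink4a/Arf KO replicate 1 and at most 0.856 in p53 KO. The mix of high and low Xist thus differed between genotypes. In bulk tissue, fewer cells of a type and less RNA per cell cannot be told apart.

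In the pancreas, all 5 ligands were highest in the libraries labelled p53 KO. Il6 (chromosome 5, 30013114 to 30019981, GRCm38) measured 2.56, 3.71, 3.18, 1.89 and 6.49 FPKM in these, while it was listed at 0 in all 5 i4F Ink4a/Arf KO libraries and had 0, 0, 0, 0.0406 and 0 FPKM in i4F. Clcf1, a ligand of the CNTF receptor, measured 8.34, 7.19, 3.76, 1.18 and 10.6 FPKM in p53 KO, against 0.333, 0.137, 0, 0.223 and 0.601 with Ink4a/Arf KO and 0.222, 0.34, 0.247, 0.99 and 0.371 in i4F. Every p53 KO value of both ligands lay above every value of the other groups, and Clcf1 in replicate 4 came closest. Lif, which sustains pluripotent mouse cells in culture, measured 3.11, 2.8, 1.85, 0.969 and 3.31 FPKM in p53 KO and 0.0449, 0.0416, 0.0163, 0.243 and 0.0582 in i4F. Osm, made mainly by myeloid cells, measured 2.48, 2.41, 0.982, 0.435 and 2.07 FPKM in p53 KO and 0, 0.0332, 0, 0.113 and 0.029 in i4F. Il11, a cytokine of stromal and epithelial cells, measured 0.58, 0.663, 0.976, 0.448 and 5.05 FPKM in p53 KO and 0, 0, 0.0719, 0.0208 and 0 in i4F. For all 3 the groups did not overlap, and the i4F Ink4a/Arf KO libraries reached at most 0.171 FPKM for Lif, 0.118 for Osm and 0.049 for Il11. Replicate 5 stood apart from the other p53 KO libraries for Il11.

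Tests used limma on log2(FPKM + 1) over the 15 libraries of a tissue, keeping genes that reached 1 FPKM in 5 or more of them, with Benjamini-Hochberg adjustment over all genes tested, two-sided. These values understate changes of genes near 1 FPKM. In the pancreas 7 of the 10 members passed the filter, and Lif, Osm and Il11 did not. Il6 and Clcf1 passed it only through the p53 KO libraries, so that they had to differ. Osmr reached 1 FPKM in all 5 p53 KO libraries, 1 i4F library and 0 i4F Ink4a/Arf KO libraries. It could therefore not pass without the p53 KO libraries, and this limits its difference too. Between p53 KO and i4F the log2 difference of Il6 was 2.10 (SE 0.19, adjusted p = 1.23e-07) and that of Clcf1 2.14 (SE 0.34, adjusted p = 1.62e-05). Without the filter, Lif differed by 1.60 (SE 0.17, adjusted p = 5.68e-06), Osm by 1.29 (SE 0.20, adjusted p = 4.98e-05) and Il11 by 1.07 (SE 0.29, adjusted p = 0.00376), and 9 of the 10 members were called higher, beside 73.6% of all genes. Of all genes tested, 91.2% were called higher as deposited and 7870 of 10781 (73%) were above i4F in every p53 KO library (85.6% above i4F Ink4a/Arf KO), so the direction alone sets no member apart. After scaling, Il6 measured 0.656, 1.13, 1.53, 1.46 and 1.76 in p53 KO and at most 0.0409 in i4F (log2 difference 1.17, SE 0.11, adjusted p = 5.93e-07). Scaled Clcf1 differed by 0.86 (SE 0.21, adjusted p = 0.00189), with 4 of 5 p53 KO values above every i4F value. Scaled Lif lay between 0.749 and 0.897 in p53 KO and between 0.025 and 0.245 in i4F, and scaled Osm between 0.336 and 0.73 in p53 KO and between 0 and 0.114 in i4F. On both scales the ligands of the p53 KO group lay above i4F in every library, apart from scaled Clcf1 in replicate 4.

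**Figure D1:**
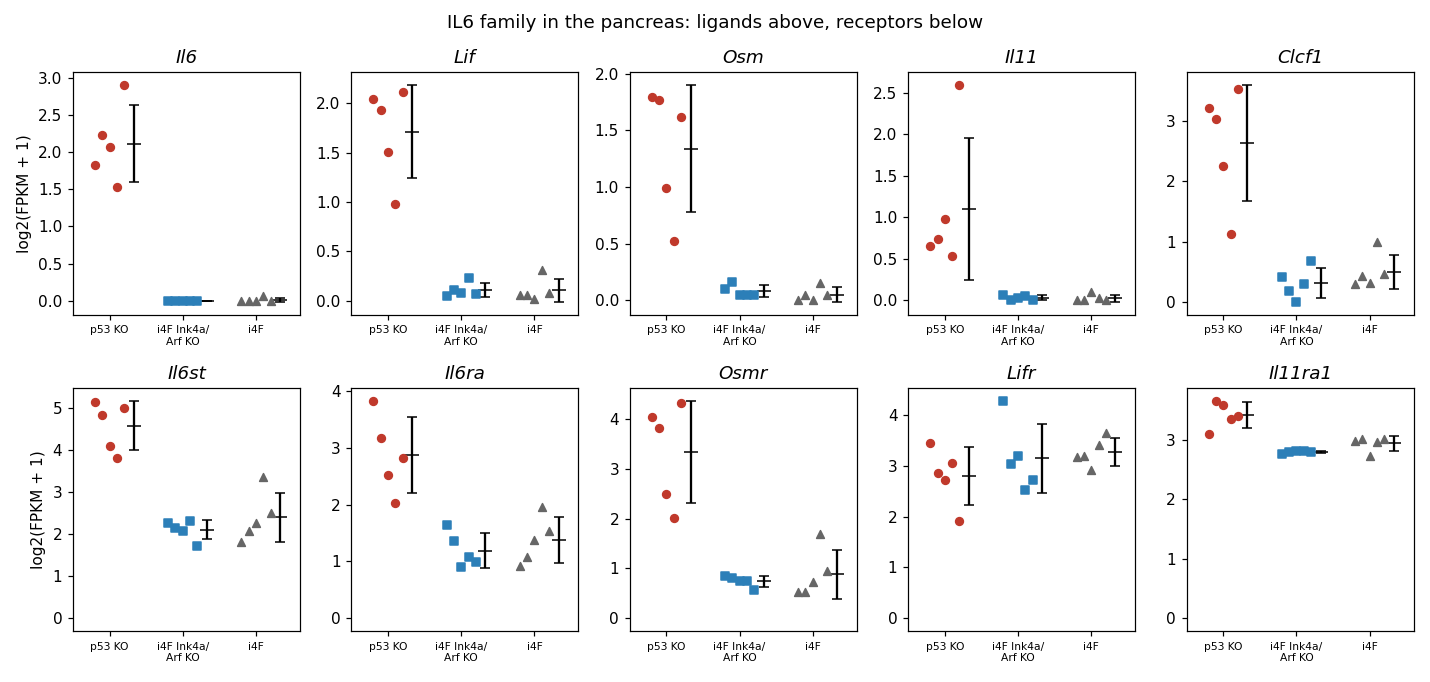
Levels of the 10 genes in the 15 pancreas libraries as deposited, on a log2(FPKM + 1) axis; each point is a library, and the black mark is the group mean with its SD (n = 5). All 5 ligands, Il6st, Il6ra, Osmr and Il11ra1 show p53 KO points above every i4F point, while Lifr does not; the median of all tested genes was itself 1.58 higher in p53 KO.

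The receptor subunits divided once the libraries were scaled. As deposited, Osmr (chromosome 15, 6813577 to 6874969) measured 15.6, 13.2, 4.67, 3.03 and 19.1 FPKM in pancreas libraries labelled p53 KO, 0.807, 0.757, 0.679, 0.675 and 0.477 with Ink4a/Arf KO and 0.431, 0.434, 0.649, 2.23 and 0.927 in i4F. Il6st measured 34.4, 27.7, 16.1, 13.2 and 31.2 FPKM in p53 KO, 2.31 to 4.01 FPKM with Ink4a/Arf KO and 2.53, 3.21, 3.8, 9.23 and 4.69 in i4F. In both genes the lowest p53 KO library, replicate 4, lay above the highest i4F library, also a replicate 4. The log2 differences were 2.47 (SE 0.38, adjusted p = 1.03e-05) for Osmr and 2.18 (SE 0.30, adjusted p = 3.94e-06) for Il6st. Scaled, Osmr stayed higher, by 1.00 (SE 0.18, adjusted p = 0.000192), with all 5 p53 KO values above every i4F value, although p53 KO replicate 3 and i4F replicate 4 both rounded to 2.24. Both Osmr differences carry the limit that it passed the filter only with the p53 KO libraries. Scaled Il6st was higher by 0.36 (SE 0.12, adjusted p = 0.0194), with 1 of 5 p53 KO values above every i4F value, and without i4F replicate 1 this did not pass (0.29, adjusted p = 0.0559; 0.00105 to 0.0559 over all single libraries left out). Scaling ended the call for Il6ra, the IL6-binding subunit: it measured 13.1, 7.97, 4.77, 3.08 and 6.08 FPKM in p53 KO, 0.871 to 2.11 FPKM with Ink4a/Arf KO and 0.893, 1.1, 1.6, 2.87 and 1.89 in i4F, a difference of 1.5 (SE 0.29, adjusted p = 0.000124) as deposited and -0.007 (SE 0.15, adjusted p = 0.968) scaled.

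Lifr and Il11ra1 were lower in p53 KO pancreas after scaling. Lifr (chromosome 15, 7090614 to 7197489) measured 9.99, 6.25, 5.61, 7.37 and 2.79 FPKM in pancreas libraries labelled p53 KO, 18.4, 7.21, 8.12, 4.76 and 5.61 FPKM with Ink4a/Arf KO and 8.02, 8.14, 6.61, 9.6 and 11.6 FPKM in i4F, and the groups overlapped as deposited (-0.47, SE 0.32, adjusted p = 0.165). Scaled, it measured 2.56, 1.89, 2.69, 5.7 and 0.755 in p53 KO and 17, 17.7, 10.1, 9.66 and 14.7 in i4F, so that every p53 KO value lay below every i4F value (-2.09, SE 0.34, adjusted p = 1e-04). Il11ra1 measured 7.59, 11.6, 11.1, 9.24 and 9.62 FPKM in p53 KO and 6.93, 7.1, 5.61, 6.79 and 7.07 in i4F; it was higher as deposited by 0.48 (SE 0.16, adjusted p = 0.00899) and differed by -1.26 (SE 0.26, adjusted p = 0.000626) after scaling. As deposited its adjusted p was 0.0554 when only the groups compared were fitted. As deposited, 6 of the 7 tested members were called higher and 0 lower, beside 93.4% of all genes called in either direction. Scaled, 4 were called higher (Il6, Osmr, Clcf1, Il6st) and 2 lower (Lifr, Il11ra1), beside 34.9% of all genes called higher and 31.2% lower. Of the 4, Il6, Clcf1 and Osmr passed the filter only with the p53 KO libraries, which favoured these calls on both scales. All 5 scaled p53 KO values lay above i4F for Il6 and Osmr and below it for Lifr, as they did for 24.2% and 21.1% of all genes. The median difference of the 7 was 2.10 as deposited and 0.36 scaled, against 1.58 and 0.035 over all genes tested. Values of Il11ra1 are uncertain, since reads of a near-identical mouse copy, Il11ra2, could be counted with it and exons of Ccl27a overlap it on the other strand. The libraries keep strand, but whether counting used it is not given in the sources used here; this also bears on Il6ra, whose exons overlap the antisense gene Gm42809, and Clcf1 shares exons with AC109138.7 on its own strand.

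**Figure D2:**
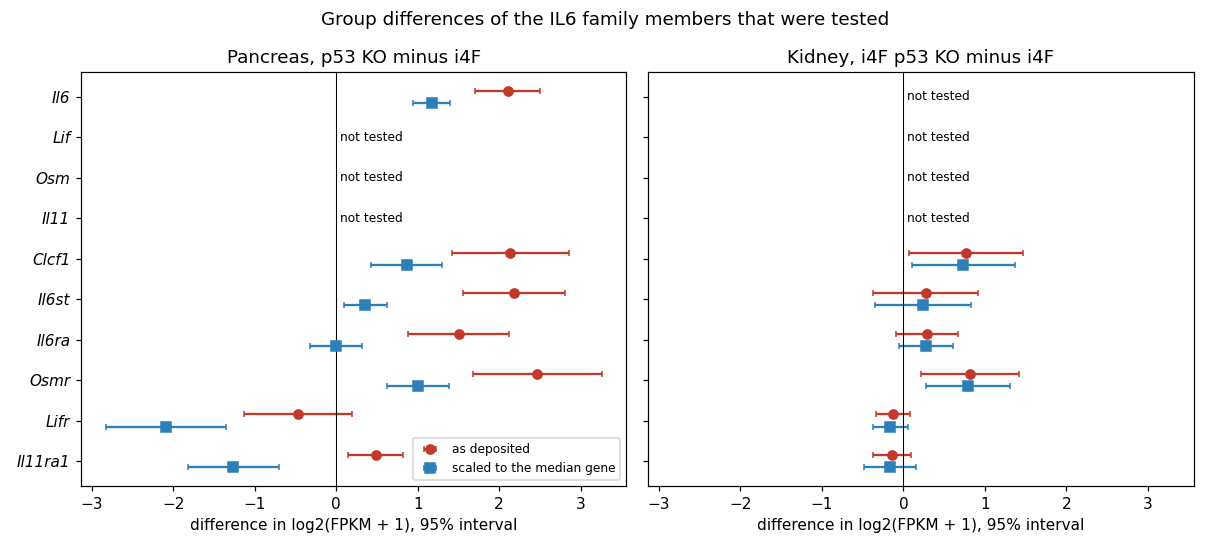
Differences in log2(FPKM + 1) with 95% intervals (limma), p53 KO minus i4F, in the pancreas at left and the kidney at right; circles are values as deposited and squares are values after scaling. In the pancreas Il6, Osmr, Clcf1 and Il6st stay above 0 after scaling while Lifr and Il11ra1 lie below it. Il6, Clcf1 and Osmr passed the pancreas filter only with the p53 KO libraries. In the kidney the intervals of Osmr and Clcf1 lie above 0 but neither passed adjustment over all genes.

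The balance of the 2 subunits that pair with gp130 can be read inside each library, where scaling cancels. The ratio of Osmr to Lifr FPKM was 1.57, 2.11, 0.832, 0.411 and 6.84 in pancreas libraries labelled p53 KO. It was 0.0438 to 0.142 with Ink4a/Arf KO and 0.0533 to 0.232 in i4F pancreas. Osmr thus exceeded Lifr in 3 p53 KO libraries and in 0 of the other 12 pancreas libraries. In the kidney the ratio was 0.796, 0.597, 0.511, 0.709 and 0.281 in i4F p53 KO, 0.195 to 0.51 with Ink4a/Arf KO and 0.151 to 0.374 in i4F. There 4 of 5 p53 KO libraries lay above both other groups, and replicate 5 lay inside them. This ratio was picked after the members' values were seen and was not tested.

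The 5 pancreas libraries labelled p53 KO differed strongly among themselves. As deposited, replicate 4 was the lowest of them for Il6, Lif, Osm, Il11, Clcf1, Il6st, Il6ra and Osmr, and replicate 5 was the highest for Il6, Lif, Il11, Clcf1 and Osmr. After scaling replicate 4 was the lowest only for Lif, Osm and Clcf1. It was then the highest for Il6st (10.2), and scaled Il6 was lowest in replicate 1 (0.656). Replicate 5 stayed the highest for the same genes. The marker sums that follow are as deposited. Acinar markers summed to 294800 FPKM in replicate 4 and to 4725 FPKM in replicate 5, the ends of that group. Fibroblast markers (10 genes) summed to 564 and 7642 FPKM in these same libraries and macrophage markers (9 of 10 genes matched) to 567 and 2979 FPKM. Over the groups, macrophage markers summed to 567 to 2985 FPKM in p53 KO, against 76.3 to 153 FPKM with Ink4a/Arf KO and 40.2 to 422 FPKM in i4F. Fibroblast markers summed to 564 to 7642 FPKM in p53 KO, against 76.5 to 128 FPKM with Ink4a/Arf KO and 63.6 to 279 FPKM in i4F. No marker of either list was at 0 in any pancreas library. After scaling 9 of 9 macrophage markers and 8 of 10 fibroblast markers were called higher in p53 KO than in i4F, beside 34.9% of all genes. Of the fibroblast markers 1 was called lower, beside 31.2% of all genes. Neutrophil markers (10 genes) summed to 34.1 to 4984 FPKM in p53 KO, against 1.79 to 410 FPKM with Ink4a/Arf KO and 2.15 to 258 FPKM in i4F, where Camp was at 0 in 2 libraries. The T cell markers matched (6 of 8) summed to 0.673 to 27.6 FPKM in p53 KO and 0.151 to 11.6 FPKM in i4F. The part of these cell types in the family's levels was not tested. Among i4F pancreata, replicate 4 was highest for Il6, Lif, Osm, Clcf1, Il6st, Il6ra and Osmr, and it also had the highest macrophage sum (422 FPKM) and neutrophil sum (258 FPKM) of that group. Its sums of fibroblast (278.7 FPKM), adipocyte (353.2 FPKM), T cell (11.61 FPKM) and endothelial markers (29.48 FPKM) were the highest of the 5 as well.

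Between i4F Ink4a/Arf KO and i4F no member was called in either tissue. In the pancreas 0 of 7 tested members passed between i4F Ink4a/Arf KO and i4F, where 0 of 10781 genes passed (0%) and 36 had an unadjusted p under 0.05 by limma, none of them a member. All 7 differences were below 0, from -0.30 (Il6st) to -0.011 (Il6), beside a median of -0.073 over all genes, of which 28.8% were above 0. With the level of Xist as a covariate Il6ra, Il6st, Lifr and Osmr turned positive. In the kidney 0 of 6 tested members passed, where 0 of 12431 genes passed (0%) and 398 had an unadjusted p under 0.05, none of them a member. The largest kidney differences were 0.37 (SE 0.28, adjusted p = 0.997) for Osmr and 0.37 (SE 0.30, adjusted p = 0.997) for Il6st, with 4 of 5 Il6st values above every i4F value. A p that misses the threshold does not show equal levels. Between pancreas libraries labelled p53 KO and i4F Ink4a/Arf KO, which share the p53 KO libraries with the comparison above, 6 of 7 members were called higher, beside 91.7% of all genes (93.7% in either direction), and Lifr differed by -0.35 (SE 0.32, adjusted p = 0.296). Scaled, 4 members were called higher and 2 lower, beside 34.7% and 33% of all genes, and Lifr differed there by -2.08 (SE 0.34, adjusted p = 9.93e-05) and Il11ra1 by -1.22 (SE 0.26, adjusted p = 0.000769). Il6, Clcf1 and Osmr, called higher on both scales, passed the filter only with the p53 KO libraries.

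In the kidney 4 of the 5 ligands were too low to be tested, and Clcf1 was the exception. Il6 measured 0.506, 0.162, 0, 0.168 and 0.118 FPKM in i4F p53 KO, 0.0381, 0.619, 0, 0.0361 and 0 with Ink4a/Arf KO and 0.147, 0.0807, 0.105, 0.153 and 0.0373 in i4F. Lif measured 3.53, 0.296, 0.166, 2.16 and 0.27 FPKM in i4F p53 KO, 0.247, 3.09, 0.349, 0.101 and 0.213 with Ink4a/Arf KO and 0.181, 0.121, 0.166, 0.997 and 0.198 in i4F. High values sat in single libraries of each genotype: p53 KO replicates 1 and 4 and Ink4a/Arf KO replicate 2 exceeded 2 FPKM of Lif, and i4F replicate 4 stood apart from the other i4F libraries. Osm stayed at or below 0.167 FPKM and Il11 at or below 0.866 FPKM in all 15 kidneys. Clcf1 measured 9.35, 1.42, 2.06, 4.3 and 4.05 FPKM in i4F p53 KO, 2.92, 2.07, 2.45, 0.621 and 1.63 with Ink4a/Arf KO and 1.56, 1.49, 1.41, 2.51 and 1.69 in i4F, with 3 of 5 p53 KO values above every i4F value. Il6, Lif, Osm and Il11 did not pass the filter. Without a filter they differed by 0.10, 0.58, 0.069 and 0.22 (log2), with adjusted p values of 0.822, 0.657, 0.556 and 0.538 in limma.

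**Figure D3:**
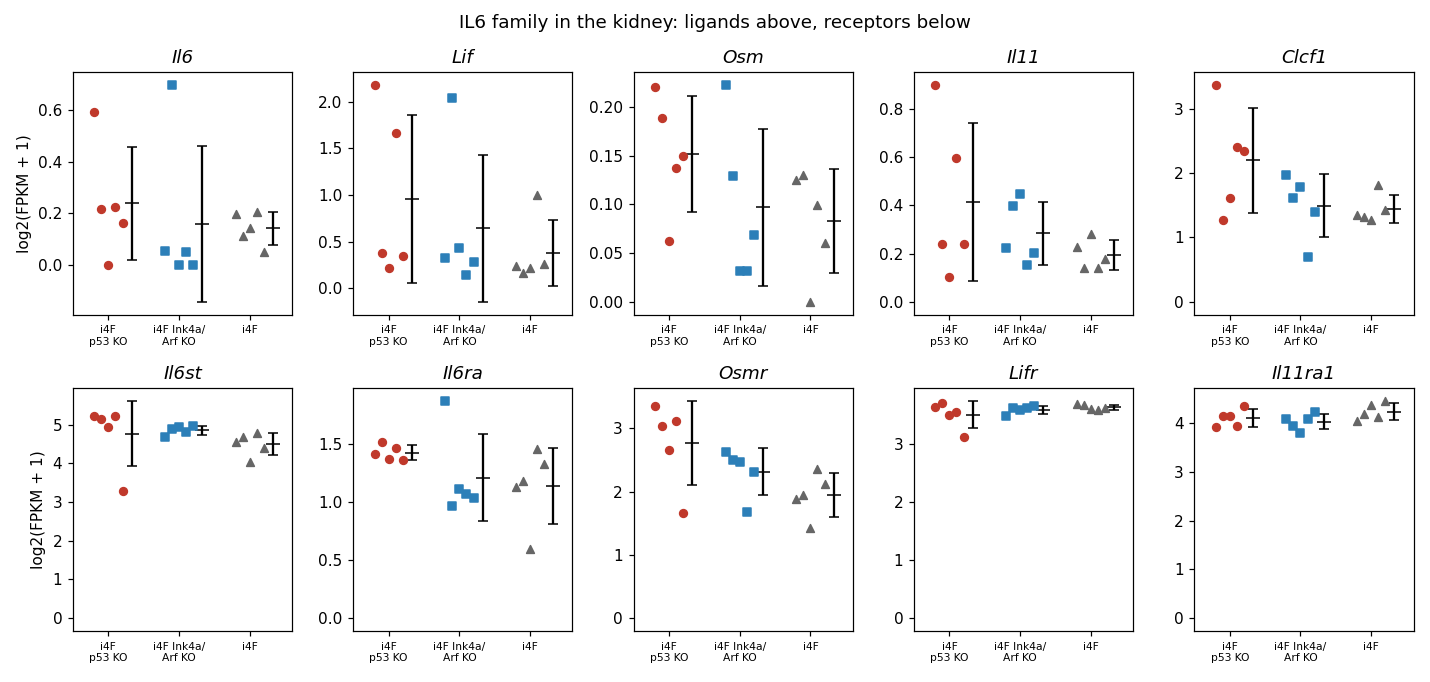
Levels of the 10 genes in the 15 kidney libraries as deposited, on a log2(FPKM + 1) axis; each point is a library, and the black mark is the group mean with its SD (n = 5). For Osmr 4 of 5 i4F p53 KO points lie above every i4F point, and the fifth, replicate 5, is also the lowest kidney library for Il6st and Lifr.

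No kidney receptor passed the test with all libraries, and Osmr had the largest difference between i4F p53 KO and i4F. Osmr measured 9.19, 7.25, 5.29, 7.64 and 2.15 FPKM in i4F p53 KO, 5.19, 4.62, 4.51, 2.19 and 3.96 with Ink4a/Arf KO and 2.71, 2.85, 1.68, 4.12 and 3.33 in i4F. Il6st measured 36.6, 34.5, 29.6, 36.6 and 8.67 FPKM in i4F p53 KO, 24.7, 28.3, 29.6, 26.9 and 30.4 with Ink4a/Arf KO and 22.5, 24.5, 15.5, 26.4 and 20.2 in i4F. In both genes 4 p53 KO libraries lay above every i4F library; replicate 5 lay within the i4F range for Osmr and below every other kidney for Il6st. None of the 6 tested members passed between i4F p53 KO and i4F, beside 0.257% of all genes (32 of 12431), although 2 members had an unadjusted p under 0.05 where 1641 genes did. The differences were 0.82 (SE 0.28, adjusted p = 0.224) for Osmr, 0.76 (SE 0.33, adjusted p = 0.33) for Clcf1, 0.29 (SE 0.18, adjusted p = 0.51) for Il6ra and 0.28 (SE 0.30, adjusted p = 0.732) for Il6st. Without p53 KO replicate 5, Osmr differed by 1.09 (adjusted p = 0.0439) and Il6st by 0.65 (adjusted p = 0.0466), where 69 genes passed in all. Nephron marker sums were lower in all 5 i4F p53 KO kidneys than in all 5 i4F kidneys, although 0 of the 9 nephron markers passed by itself (median -0.386), and their part in these differences was not tested. Replicate 5 of i4F p53 KO had the lowest endothelial (43.1 FPKM) and fibroblast (50.8 FPKM) sums of the 15 kidneys and the highest neutrophil sum (174 FPKM); the part of these in its values was not tested. Il6ra lay at 1.57 to 1.87 FPKM in i4F p53 KO, 0.949 to 2.65 FPKM with Ink4a/Arf KO and 0.514 to 1.75 FPKM in i4F. Lifr lay at 7.68 to 12.1 FPKM in i4F p53 KO, 10.2 to 11.7 FPKM with Ink4a/Arf KO and 11.02 to 11.88 FPKM in i4F, and Il11ra1 at 14.1 to 19.4, 12.96 to 17.69 and 15.5 to 20.9 FPKM in the same groups, so that the groups overlapped. Lifr and Il11ra1 differed by -0.13 (SE 0.10, adjusted p = 0.601) and -0.14 (SE 0.11, adjusted p = 0.625).

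Other kidney settings moved single members across the threshold. With the level of Xist as a covariate Il6ra passed at 0.52 (adjusted p = 0.0472) between i4F p53 KO and i4F. Of these groups, only i4F replicates 4 and 5 were high in Xist. Clps, a pancreatic enzyme cofactor, exceeded 100 FPKM in i4F p53 KO replicates 2, 3 and 4 and i4F replicate 5; without these libraries, which leaves 2 p53 KO kidneys, Il6st differed by -0.26 (adjusted p = 0.772). Between i4F p53 KO and i4F Ink4a/Arf KO kidneys 0 of 6 members passed (0.265% of all genes did), with Clcf1 at 0.71 (SE 0.33, adjusted p = 0.275) and Osmr at 0.45 (SE 0.28, adjusted p = 0.417); without the same libraries Clcf1 passed at 1.36 (adjusted p = 0.0431). As deposited, replicates 1 and 4 of i4F p53 KO were each among the 3 highest of 15 kidneys for 7 of the 10 members. The same count was not made over all genes, and their scaling factors were 1.16 and 1.08. Il6 and Il11, which count for both, stayed below 1 FPKM in all kidneys. These replicates had the highest Pou5f1 levels of all kidneys, 15.7 and 8.86 FPKM. They also had the highest fibroblast sums of all kidneys, 289.8 and 343.9 FPKM, against 289.1 FPKM in Ink4a/Arf KO replicate 3. Their nephron sums were the lowest, 2256 and 2851 FPKM. In i4F, replicate 4 was highest for Il6, Lif, Clcf1, Osmr, Il6ra and Il6st and for Pou5f1 (5.40 FPKM). Neutrophil markers summed to 60.4 to 174 FPKM in i4F p53 KO, 16.8 to 59.2 with Ink4a/Arf KO and 14.3 to 25.8 in i4F, with S100a8 at 33 to 92.1 FPKM in i4F p53 KO, against 7.04 to 14.1 in i4F, and no neutrophil marker was at 0 in a p53 KO kidney. The part of these cell types or of Pou5f1 in the members' values was not tested.

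The order of levels differed between the tissues, which were deposited as separate tables and are set side by side without a test. In i4F kidney the medians ran from Il6st (22.5 FPKM) through Il11ra1 (17.2), Lifr (11.4), Osmr (2.85), Clcf1 (1.56) and Il6ra (1.26) to Lif, Il11, Il6 and Osm, all below 0.2 FPKM. Ranges of neighbours overlapped there except between Il11ra1 and Lifr and between Lifr and Osmr. In i4F pancreas Lifr (8.14 FPKM) and Il11ra1 (6.93) came before Il6st (3.80), Il6ra (1.60) and Osmr (0.649), and every neighbouring pair overlapped. In pancreas libraries labelled p53 KO the order opened with Il6st (27.7 FPKM), Osmr (13.2), Il11ra1 (9.62), Clcf1 (7.19), Lifr (6.25) and Il6ra (6.08), again with overlap between all neighbours. FPKM are divided by transcript length, so genes can be ordered within a library, and the order given here is that of group medians.

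The genes whose levels ran most like Osmr over the 15 kidneys were Lox, a collagen crosslinking enzyme, the chemokines Ccl12 and Cxcl16, Ep400, a chromatin remodeller, and Tab2, an adaptor of cytokine signalling. Their standardised log2 levels differed from those of Osmr by 0.257 to 0.273 SD on average. They spanned different ranges, from 0.1 to 14.4 FPKM for Ccl12 and from 14.2 to 23.9 FPKM for Tab2, against 1.68 to 9.19 FPKM for Osmr.

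The p53 KO minus i4F difference was larger in the pancreas than in the kidney for most members as deposited. In the interaction over 30 libraries 8 members were tested and 7 passed, each with the larger difference in the pancreas, beside 84.2% of all genes called higher. The labels do not say whether kidney and pancreas libraries of the same number came from 1 mouse, and the fit took them as independent. All 5 p53 KO pancreata reached 1 FPKM of Il6 and 0 of the other 25 libraries did, so it entered this test only through those 5 and had to differ (2.01, SE 0.23, adjusted p = 9.52e-08). Il6st differed by 1.91 (SE 0.43, adjusted p = 0.00026) and Osmr by 1.65 (SE 0.49, adjusted p = 0.00309). Scaled, 1 member was called higher, Il6, at 1.09 (SE 0.17, adjusted p = 2.06e-05), to which the same limit applies. Scaled Lifr at -1.93 (SE 0.38, adjusted p = 0.000221) and Il11ra1 at -1.09 (SE 0.31, adjusted p = 0.00629) were called lower, and Osmr differed by 0.21 (SE 0.31, adjusted p = 0.617). Lif, at 1.03 (SE 0.46, adjusted p = 0.0405), lost its call without any 1 of kidney i4F p53 KO replicates 2, 3 and 5, kidney i4F replicate 4, pancreas p53 KO replicates 1, 2 and 5 and pancreas i4F replicates 1, 2, 3 and 5, with adjusted p values of 0.0525 to 0.0905. Lif reached 1 FPKM in 4 pancreas p53 KO, 2 kidney i4F p53 KO and 1 kidney i4F Ink4a/Arf KO libraries. It therefore passed the filter only with the pancreas p53 KO libraries, which favoured its call. The scaled background was 22.4% of genes called higher and 19.6% lower. The labels differ in naming i4F in 1 tissue only, and this cannot be told apart from the tissue.

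Most other ligands and receptors of the family showed no called difference in the kidney or were too low to test. Of 8 such genes (Cntf, Cntfr, Ctf1, Ebi3 and others) 5 were tested in the kidney and none passed between i4F p53 KO and i4F; the smallest p belonged to Cntf at -0.42 (SE 0.20, adjusted p = 0.391). In the pancreas Ebi3, a subunit of IL27 and IL35, differed by 1.10 (SE 0.27, adjusted p = 0.000968) between p53 KO and i4F, below the 1.58 of the median gene, and by 0.091 (SE 0.20, adjusted p = 0.707) after scaling. Scaled, Ctf1, cardiotrophin, differed by -1.04 (SE 0.23, adjusted p = 0.00127). The sheddases Adam10 and Adam17, proteases that can release soluble IL6 receptor, were higher in p53 KO pancreas by 2.68 (SE 0.33, adjusted p = 1.73e-06) and 2.53 (SE 0.32, adjusted p = 1.8e-06), and scaled by 0.83 (SE 0.14, adjusted p = 0.000139) and 0.91 (SE 0.12, adjusted p = 1.47e-05). In the kidney they differed by -0.043 (SE 0.17, adjusted p = 0.939) and -0.016 (SE 0.11, adjusted p = 0.968).

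Of 12 JAK-STAT and MAPK transducers, 12 were called higher in pancreas labelled p53 KO as deposited, beside 91.2% of all genes, with a median of 2.05, against 1.58 over all genes. Scaled, 6 were higher and 1 lower, beside 34.9% and 31.2% of all genes, with a median of 0.20 against 0.035. Pancreas genes of any list could pass the filter through the p53 KO libraries alone, which favours higher calls and higher list medians. Which genes did so is not given here. Stat3, the main transcription factor of the pathway, was higher by 2.47 (SE 0.30, adjusted p = 1.63e-06) as deposited and 0.61 (SE 0.15, adjusted p = 0.00257) scaled, and the kinase Jak2 by 2.58 (SE 0.36, adjusted p = 4.87e-06) and 0.98 (SE 0.15, adjusted p = 4.96e-05). Stat5b was the transducer that was lower after scaling (-0.33, SE 0.085, adjusted p = 0.0037). In the kidney none of the 12 passed between i4F p53 KO and i4F, and Stat3 came closest at 0.97 (SE 0.25, adjusted p = 0.105). Its levels there were 28.9 to 55.1 FPKM in i4F p53 KO, against 12.5 to 25.5 FPKM in i4F. The groups did not overlap, as for 0.845% of all genes in that direction.

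Among 8 negative regulators, Socs3, the feedback inhibitor that STAT3 induces at gp130, differed most. It measured 19.2 to 46.3 FPKM in pancreas libraries labelled p53 KO, 1.13 to 4.05 FPKM with Ink4a/Arf KO and 0.808 to 2.21 FPKM in i4F, a difference from i4F of 3.77 (SE 0.29, adjusted p = 2.61e-08) as deposited and 2.04 (SE 0.26, adjusted p = 9.74e-06) scaled. The phosphatase Ptpn2 differed by 0.54 (SE 0.086, adjusted p = 7.81e-05) and Socs1 by 0.69 (SE 0.23, adjusted p = 0.0163) after scaling, and Cish, a STAT5 target, by -0.73 (SE 0.15, adjusted p = 0.000513). As deposited all 8 were called higher, beside 91.2% of all genes, and scaled 3 were higher and 1 lower, beside 34.9% and 31.2%, so the share of the list called higher was near that of all genes. In the kidney none of the 8 passed between i4F p53 KO and i4F. Socs3 measured 2.81 to 15 FPKM in i4F p53 KO, against 1.01 to 4.07 FPKM in i4F kidneys (1.66, SE 0.47, adjusted p = 0.133), and the ranges overlapped.

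Of 15 STAT3 response genes, 14 were called higher in pancreas labelled p53 KO as deposited, near the 91.2% of all genes, with a median of 2.96 against 1.58. Scaled, 11 were higher and 2 lower, beside 34.9% and 31.2% of all genes, with a median of 1.16 against 0.035. The same limit of the filter applies to these pancreas calls and medians. Timp1, an inhibitor of matrix proteases, measured 144 to 828 FPKM in p53 KO and 0.162 to 2.1 FPKM in i4F (7.48, SE 0.38, adjusted p = 3.58e-10; scaled 5.85, SE 0.33, adjusted p = 1.13e-08). Bcl3, a nuclear cofactor of NF-kB, was higher by 3.83 (SE 0.28, adjusted p = 1.8e-08) and scaled by 2.28 (SE 0.28, adjusted p = 8.41e-06), and Junb, an AP-1 subunit, by 4.81 (SE 0.39, adjusted p = 4.35e-08) and scaled by 3.01 (SE 0.24, adjusted p = 1.69e-07). Il4ra, the IL4 receptor, was higher by 2.32 (SE 0.20, adjusted p = 3.21e-07) scaled. The kinase gene Pim3 and the vascular growth factor gene Vegfa were lower after scaling, at -1.68 (SE 0.23, adjusted p = 1.65e-05) and -0.99 (SE 0.19, adjusted p = 0.000355). In the kidney 14 were tested and 13 differences between i4F p53 KO and i4F were above 0, beside 55.4% of all genes. The median of the 14 was 0.48 against 0.026 over all genes, but none of them passed. Bcl3 measured 6.83 to 21.7 FPKM in i4F p53 KO, against 3.21 to 5.11 FPKM in i4F kidneys, without overlap, as for 0.845% of all genes in that direction. Its difference was 1.41 (SE 0.29, adjusted p = 0.0586), and it passed after scaling (1.38, SE 0.27, adjusted p = 0.0397). Cebpb, a factor that also binds the Il6 promoter, differed by 0.89 (SE 0.22, adjusted p = 0.1).

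**Figure D4:**
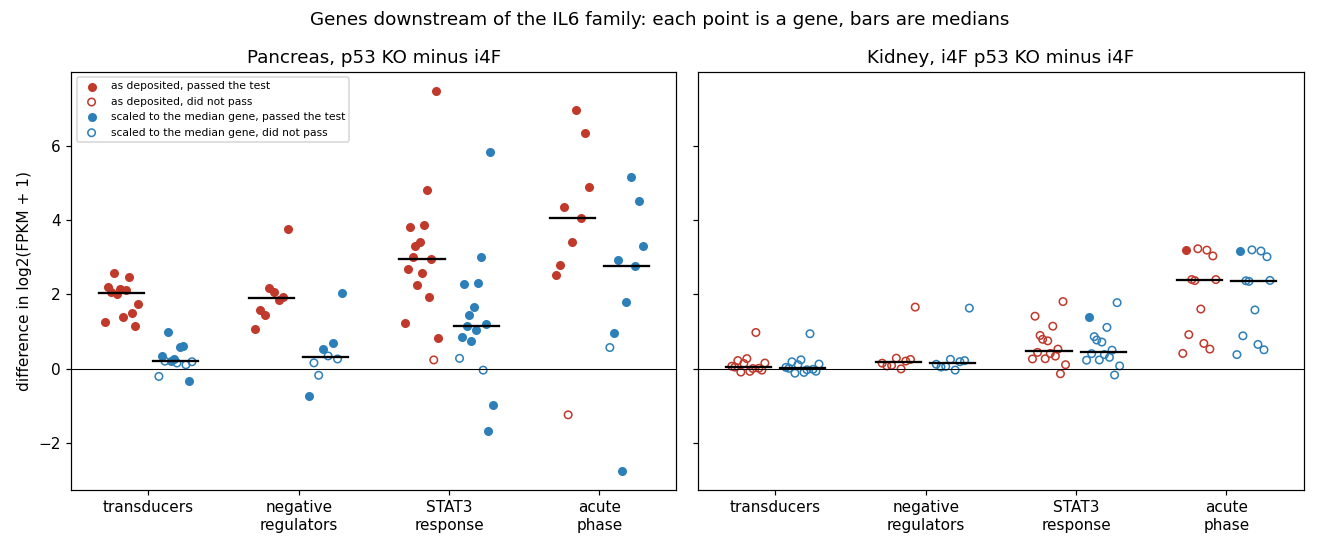
Differences in log2(FPKM + 1), p53 KO minus i4F, for the tested genes of 4 lists downstream of the family in pancreas (left) and kidney (right), as deposited (red) and scaled (blue). Pancreas genes could pass the filter through the p53 KO libraries alone. Each point is a gene, filled where its adjusted p was under 0.05, and bars are medians; acute phase genes have the highest medians in both tissues, 4.05 in the pancreas as deposited and 2.39 in the kidney, where 1 point is filled as deposited.

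Acute phase proteins, the classical products of IL6 signalling in hepatocytes, had the highest median difference of the 6 lists in both tissues, 4.05 in the pancreas as deposited and 2.77 scaled. In the pancreas 9 of 19 were tested, and 8 were called higher in p53 KO as deposited, near the 91.2% of all genes. These genes, too, could pass the filter through the p53 KO libraries alone, which limits the pancreas calls and medians. Scaled, 7 were higher, beside 34.9% of all genes, and Itih4 was lower, beside 31.2% (-2.75, SE 0.77, adjusted p = 0.00541). Lcn2, lipocalin 2, measured 149 to 1490 FPKM in p53 KO and 0.868 to 7.37 FPKM in i4F pancreas (6.97, SE 0.65, adjusted p = 1.57e-07; scaled 5.17, SE 0.59, adjusted p = 4.2e-06). The scaled differences of Saa1, serum amyloid A, Serpina3n, a protease inhibitor, and Cp, ceruloplasmin, were 2.77 (SE 0.13, adjusted p = 2.48e-09), 3.29 (SE 0.43, adjusted p = 1.29e-05) and 0.96 (SE 0.18, adjusted p = 0.000259). In the kidney 12 were tested and all 12 differences between i4F p53 KO and i4F were above 0, beside 55.4% of all genes. Their median was 2.39 against 0.026 over all genes, but C3, complement component 3, was the only one that passed (3.19, SE 0.56, adjusted p = 0.0262). C3 measured 20.6 to 173 FPKM in i4F p53 KO, 6.41 to 32.1 FPKM with Ink4a/Arf KO and 3 to 13.3 FPKM in i4F kidneys. The fibrinogen genes Fgg and Fga differed by 3.23 (SE 0.80, adjusted p = 0.1) and 2.40 (SE 0.63, adjusted p = 0.105) and Serpina3n by 2.40 (SE 0.62, adjusted p = 0.105). Lcn2 ranged over 15.2 to 561 FPKM in i4F p53 KO, against 2.3 to 24.8 FPKM in i4F kidneys. Lcn2 and C3 are also expressed by neutrophils and macrophages. Macrophage markers summed to 99.75 to 281.1 FPKM in i4F p53 KO kidneys, 86.64 to 644 FPKM with Ink4a/Arf KO and 93.57 to 177.8 FPKM in i4F, and neutrophil sums were higher and nephron sums lower in every i4F p53 KO kidney than in every i4F kidney. Their part in the acute phase, Stat3 and Bcl3 values was not tested. Between i4F Ink4a/Arf KO and i4F none of the genes of these lists passed in either tissue.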

How the data were processed

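RNA-seq of kidney and pancreas gave 2 tables of FPKM values (fragments scaled by transcript length and by mapped reads) for 15 libraries each, which the authors deposited with no read counts. Per the submitters' processing notes, reads were handled with Cufflinks 2.2.1, TopHat2 2.0.10, SAMtools 0.1.19 and Bowtie 1.0.0 on mm10; their settings and the strand setting are not given in the sources used here. Depth per gene is unknown, so no counting interval can be given, and the low values are not on whole-read steps from which reads could be recovered. Because FPKM divide by mapped reads, a change in a few abundant transcripts shifts all others. Here limma 3.58.1 (R 4.3.3) was fitted to log2(FPKM + 1) over the 15 libraries of a tissue, or all 30 for the difference between tissues, with trended empirical Bayes variances. Genes with 1 FPKM or more in 5 or more libraries were tested, p-values were adjusted over all of them by the Benjamini-Hochberg method, and calls were made under 0.05. Each group holds 5 mice. Scaled values were divided by median-of-ratios factors. The alternatives were a pseudocount of 0.1 FPKM, no filter, a filter of 5 FPKM, scaling, only the groups compared, the replicate number as a block, the level of Xist as a covariate, kidney libraries above 100 FPKM of Clps left out, and each library left out in turn. The fits were tested on simulated data. All 10 members are described; from each pathway list and comparison, up to 4 called genes with the smallest p were named, or up to 2 as values where none was called, and the 5 tested genes nearest to Osmr over the kidneys. Genes named as lower after scaling, and Fgg, Fga, Serpina3n and Lcn2 in the kidney, fall outside this rule and were named after their values were seen. The values of 1 gene of the lists are not reported here. The members and lists were chosen with earlier results of these data known. Names that label more than 1 entry (27 in each table) were kept as separate entries and dropped from the fit over both tissues. Positions are from GENCODE vM21 on GRCm38.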

Additional observations from a re-analysis of the deposited data

Results flagged for a closer look

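In 11 of 60 groups of 5 libraries, 1 library's level of a member stood apart from the others by Dixon's test; chance gives about 1 in 20 groups, a rate that does not hold where most values are 0. In i4F pancreas replicate 4 this held for Il6 (0.0406 FPKM), Lif (0.243 FPKM) and Clcf1 (0.99 FPKM), each the highest (for Il6 the other 4 libraries were listed at 0, so any value above 0 would stand apart), and in replicate 3 for Il11ra1 (5.61 FPKM, the lowest). In pancreas labelled p53 KO it held for Il11 in replicate 5 (5.05 FPKM, the highest). In the kidney it held for Il6st in i4F p53 KO replicate 5 (8.67 FPKM, the lowest), and for the highest values of Il6ra in i4F Ink4a/Arf KO replicate 1 (2.65 FPKM), of Il6 (0.619 FPKM) and Lif (3.09 FPKM) in i4F Ink4a/Arf KO replicate 2, and of Lif (0.997 FPKM) and Clcf1 (2.51 FPKM) in i4F replicate 4.

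The p53 KO minus i4F difference was larger in the pancreas than in the kidney for 7 of 8 tested members by limma's interaction test, beside 84.2% of all genes. The log2 values as deposited were 2.01 for Il6, 1.91 for Il6st, 1.65 for Osmr, 1.37 for Clcf1, 1.22 for Il6ra, 1.03 for Lif and 0.62 for Il11ra1, beside a median of 1.391 over all genes tested. Il6 entered the test only through the pancreas p53 KO libraries, and Lif could not have passed the filter without them. After scaling, Il6 (1.09) was still called higher and Il11ra1 (-1.09) was called lower, while Il6st (0.115), Osmr (0.21), Clcf1 (0.127), Lif (0.188) and Il6ra (-0.283) were no longer called.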

How the results depend on the processing

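Scaling turned the direction of pancreas members. Between p53 KO and i4F, Il6ra became -0.007 and Il11ra1 -1.26; between p53 KO and i4F Ink4a/Arf KO, Il11ra1 became -1.217; in the difference between tissues, Il6ra became -0.283 and Il11ra1 -1.092, with 5578 genes and 3 members called instead of 11390 and 7. With a filter of 5 FPKM the pancreas calls of p53 KO against i4F numbered 4825 genes and 2 members (10070 and 6 at 1 FPKM) and against i4F Ink4a/Arf KO 4830 and 2 (10103 and 6), and the members called between tissues 3. Kidney counts were unstable. Between i4F p53 KO and i4F, 32 genes became 62 with scaling, 13 with only the groups compared, 17 with the replicate block, 244 with Xist as a covariate, where 1 member passed, and 270 without the libraries above 100 FPKM of Clps, where Il6st became -0.256. Between i4F p53 KO and i4F Ink4a/Arf KO, 33 genes became 61 with a pseudocount of 0.1, 12 with no filter, 51 with the 5 FPKM filter, 67 with scaling, 5 with only the groups compared, 16 with the replicate block, 313 with Xist and 867 without the Clps libraries, where 1 member passed. Between i4F Ink4a/Arf KO and i4F kidneys, 1 gene passed with Xist and 1 without the Clps libraries; in the pancreas, Xist as a covariate gave Il6ra 0.155, Il6st 0.008, Lifr 0.189 and Osmr 0.145. The causes of these shifts were not tested.

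With each library left out in turn, genes called in the kidney ranged over 7 to 166 (i4F p53 KO against i4F, with 0 to 2 members), 0 to 1 (i4F Ink4a/Arf KO against i4F) and 9 to 326 (i4F p53 KO against i4F Ink4a/Arf KO), the highest of the first and last without i4F p53 KO replicate 2. The first moved by over 1.5 times without any 1 p53 KO library or i4F replicates 2 to 5, and the last without any 1 Ink4a/Arf KO library, i4F replicates 2 to 4 or p53 KO replicates 2 to 5. In the pancreas they ranged over 8863 to 10046 and 4 to 6 members (p53 KO against i4F), 0 to 2 (i4F Ink4a/Arf KO against i4F) and 8915 to 10100 and 4 to 6 members (p53 KO against i4F Ink4a/Arf KO); with a p53 KO library left out, Il6 and Clcf1 fell below the filter. Between tissues the range was 10864 to 11601 genes and 5 to 7 members. Members whose direction turned were, in i4F Ink4a/Arf KO against i4F kidneys, Clcf1 (-0.061 to 0.257) and Il6ra (-0.093 to 0.152). In i4F p53 KO against i4F Ink4a/Arf KO kidneys they were Il6st (-0.208 to 0.283) and Lifr (-0.14 to 0.009). In i4F Ink4a/Arf KO against i4F pancreata they were Lifr (-0.401 to 0.037) and Osmr (-0.225 to 0.068). There Il6 (-0.014 to 0) did not turn but reached 0 without i4F replicate 4. Scaled Il6ra turned in p53 KO against i4F pancreata (-0.1 to 0.081). The scaled fits with a library left out were chosen after seeing the data.

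Within a tissue no consistent pairing by replicate number was seen. At most 3 of 5 same-numbered pairs in a comparison had deviations correlated over 0.1, and the highest correlation was 0.291. With 5 pairs in a comparison, this check cannot exclude a pairing. Across tissues, genotype and number as a random block gave a consensus correlation of 0.036 and 11428 genes and 7 members called. The block changed no member's call, and it left 9916 genes called between pancreas p53 KO and i4F. What depth limits cannot be given, since depth is unknown.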
